A study of Mus musculus with 19 samples.

Results

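Cell cycle and mitosis genes were followed through whole mouse skin in 40 members, taken by symbol from the count matrix: 15 genes of S phase, 22 of G2 and mitosis, and the 3 transcription factors E2f1, Foxm1 and Mybl2. All 40 are among the 18521 genes of the matrix, and all 40 were among the 15760 genes tested. RNA was sequenced from the skin of 16 mice in 19 libraries. All were females of a line with the alleles Ptch1+/-, K14-CreER2 and p53fl/fl. Every mouse, healthy ones included, lacks 1 Ptch1 allele and carries the floxed p53 gene (Trp53) and a Cre recombinase driven by the keratin 14 promoter, which acts in basal keratinocytes once tamoxifen is given.

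The AFL group (mice 2, 7 and 11) held basal cell carcinoma (BCC) skin after 1 pass of ablative fractional laser at a density of 5% and 40 mJ per microbeam, at 228 to 326 days of age and 80 to 126 days after induction. The vismodegib group (mice 1, 6, 9 and 12) held BCC skin after 8 treatments with vismodegib, a blocker of Smoothened, which passes on the Hedgehog signal (route not given in the labels), at 268 to 326 days of age and 109 to 137 days after induction. The BCC group (mice 3, 4, 5 and 8) held untreated BCC skin, at 278 to 320 days of age and 130 to 144 days after induction. Days after induction did not overlap between the AFL and BCC groups, so laser and time since induction cannot be told apart there. The healthy group (mice 10, 13, 14, 15 and 16) was not induced and was 128 to 137 days old, so induction and age cannot be told apart. Induction was 3 injections of 300 µg tamoxifen with 1 x-ray dose of 4 Gy in the 3 other groups. Every library title carries day 4, also those of healthy and untreated BCC skin. No group given a vehicle or a sham laser pass is among the samples used here.

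Library totals were 27185921 to 33556611 expected counts. Trp53 had 31.5 to 44.9 CPM (counts scaled to the size of the library) after AFL, 25.3 to 55.1 CPM after vismodegib and 23.6 to 36.3 CPM in BCC, against 94.0 to 142.9 CPM in healthy skin. Its groups thus followed the labels in every mouse. The basal keratinocyte gene Krt5 lay between 3356 and 11166 CPM over the 16 mice, as skin should show. Mice 11, 12 and 16 had a pair of libraries each, which were summed. Both libraries of mouse 16 carry the same number but ages of 128 and 135 days.

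Cells that divide copy their DNA in S phase and separate the copies in mitosis. E2F factors switch on genes for DNA replication when retinoblastoma family proteins release them, and the MuvB complex, with Mybl2 (B-Myb) and then Foxm1, switches on the genes of G2 and mitosis. In skin, dividing cells lie in the basal epidermis, in BCC nests and, while a hair grows, in the hair matrix. In bulk skin, fewer dividing cells and less RNA per dividing cell cannot be told apart.

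Promoter letters were searched in both classes, with no use of expression. RefSeq promoter entries on GRCm38.p6 were found for 32 of the 40 members, giving 33 windows, and the 250 bases before each start were searched on both strands. The cell cycle homology region (CHR, here TTTGAA or TTTAAA), a site of MuvB, was in 61.1% of 18 windows of mitosis members and 23.1% of 13 windows of S phase members, against 25.2% of all 32851 windows in the table. An E2F site (TTTGGCGC, TTTCCCGC, TTTCGCGC or TTTGCCGC) was in 5.56% of mitosis windows and 30.8% of S phase windows, against 1.86% of all windows. The CCAAT box (CCAAT), which NF-Y binds, was in 88.9% of mitosis windows and 69.2% of S phase windows, against 33.8% of all windows. In genes that passed the filter on low counts, windows held the CHR in 18.7%, an E2F site in 2.89% and the CCAAT box in 34.7%. A match is a description, not a site shown to be used.

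The 160 bases before the start are shown for 5 members, with matched letters in capitals. Cdk1, the kinase that starts mitosis, and Ccnb1, its cyclin B1 partner, show the CHR with CCAAT boxes, a pair found in 10 of 18 windows of mitosis members. The first capitals of Cdk1, 131 bases before the start, are E2F letters, found in 1 of those 18 windows. Mcm6, a subunit of the replication helicase, shows E2F letters, 1 match overlapping another on the opposite strand. Kif23, a kinesin of cytokinesis, and Mybl2 are the genes on which the tests below turn. The stretches are chr10:69352913-69353072 for Cdk1, chr13:100786487-100786646 for Ccnb1, chr1:128359706-128359865 for Mcm6 and chr9:61946800-61946959 for Kif23, all on the minus strand, and chr2:163054475-163054634 on the plus strand for Mybl2.
Cdk1: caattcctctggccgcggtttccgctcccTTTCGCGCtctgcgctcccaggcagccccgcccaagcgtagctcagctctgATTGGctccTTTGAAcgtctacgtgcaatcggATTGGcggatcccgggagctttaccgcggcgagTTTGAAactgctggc
Ccnb1: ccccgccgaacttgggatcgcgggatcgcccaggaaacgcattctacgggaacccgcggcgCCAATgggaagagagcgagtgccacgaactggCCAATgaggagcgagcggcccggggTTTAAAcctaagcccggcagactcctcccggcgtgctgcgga
Mcm6: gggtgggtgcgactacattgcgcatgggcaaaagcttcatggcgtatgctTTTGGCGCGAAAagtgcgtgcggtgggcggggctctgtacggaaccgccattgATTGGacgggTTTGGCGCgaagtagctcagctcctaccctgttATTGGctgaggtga
Kif23: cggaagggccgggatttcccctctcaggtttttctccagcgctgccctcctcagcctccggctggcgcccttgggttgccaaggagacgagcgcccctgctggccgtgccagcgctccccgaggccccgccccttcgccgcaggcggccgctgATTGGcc
Mybl2: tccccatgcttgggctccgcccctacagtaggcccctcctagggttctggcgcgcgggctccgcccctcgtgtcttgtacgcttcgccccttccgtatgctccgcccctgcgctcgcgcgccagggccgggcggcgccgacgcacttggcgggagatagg

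Cdk1 thus carries CHR letters 71 and 15 bases before the start, and Ccnb1 42 bases before it. Kif23 has 1 CCAAT box, read on the other strand, and neither CHR nor E2F letters in its window. Mybl2 has none of the letters searched in its window. That says only that these exact letters are not in these bases.

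The members varied widely between mice of a group. The ratio of the highest to the lowest of the 16 mice ran from 2.63 for E2f1 to 14.7 for Ccne2, which encodes cyclin E2. Vismodegib mouse 9 was the highest of all mice for 18 members, of which 14 are mitosis genes and 4 are S phase genes. BCC mouse 3 was the highest for 12 members. Healthy mouse 15 was the lowest for 22 members, and BCC mouse 5 for 17.

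**Figure D1:**
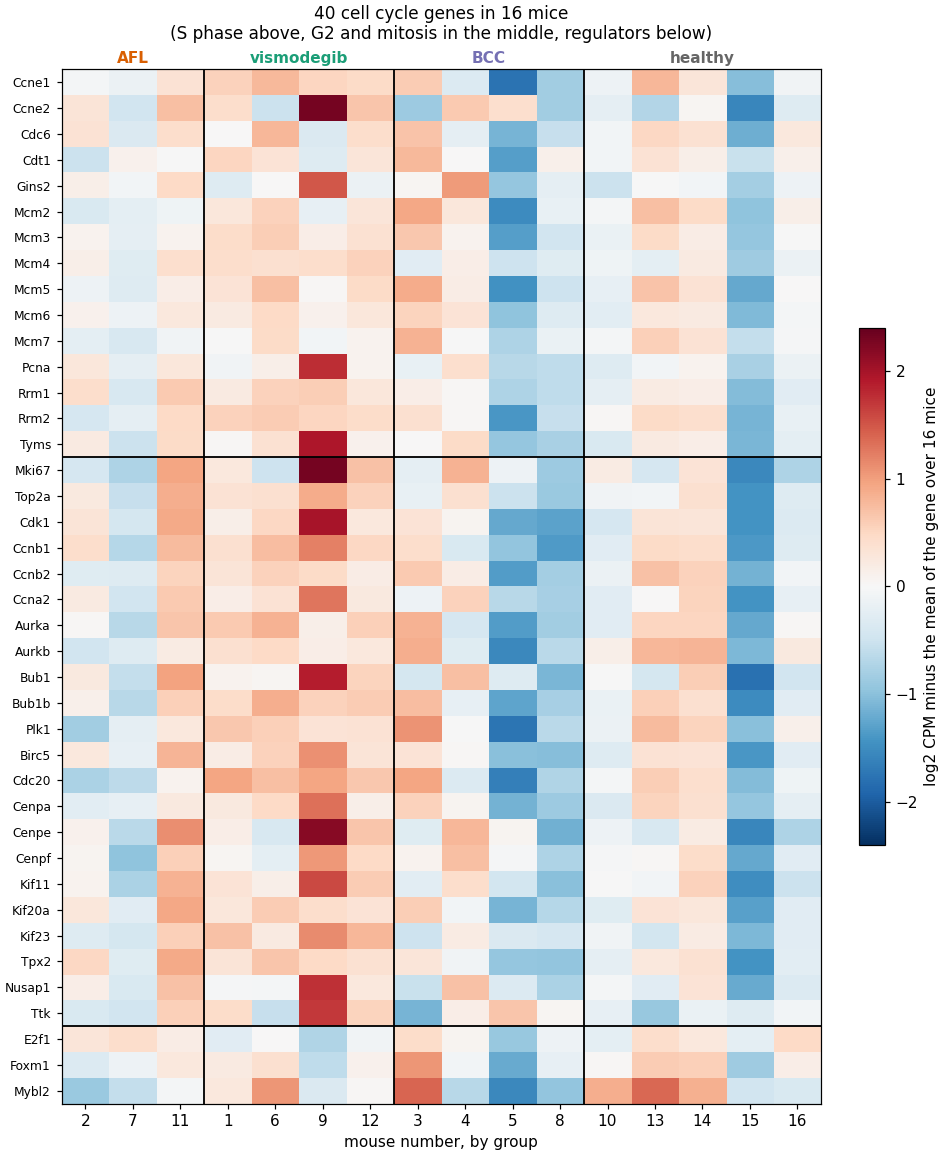
Each row is a member and each column a mouse. Colour gives log2 CPM minus the mean of the gene over the 16 mice. Vismodegib mouse 9 is the highest mouse for 18 members, mostly of mitosis. AFL mouse 7, BCC mice 5 and 8 and healthy mouse 15 are blue in nearly every row, with 2, 3, 2 and 0 members above the gene mean.

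Untreated BCC skin was set against healthy skin, from mice that were not induced and were younger. No member passed edgeR's quasi-likelihood test at an adjusted p under 0.05 (0 of 40), where 2.82% of all genes tested were called. Counts were also 0 at an unadjusted p under 0.05 (14.2% of all genes), in DESeq2 and in limma voom. In no member did the groups part without overlap, where 5.18% of all genes were higher and 1.47% lower in every BCC mouse. The median log2 fold change of the members was -0.06 (-0.0036 over all genes). Mki67, the proliferation antigen used in pathology, had 92.1, 189.8, 98.2 and 57.9 CPM in BCC mice 3, 4, 5 and 8, against 122, 80.9, 134.7, 36.2 and 63.6 CPM in healthy mice 10, 13, 14, 15 and 16. The groups overlapped widely, and the log2 fold change was 0.32 (SE 0.54, adjusted p = 0.837). Ccnb1 stood at -0.32 (SE 0.41, adjusted p = 0.772), and Pcna and Mcm5 at 0.02 and -0.03 (adjusted p = 0.987 and 0.982). The sign of the member median turned with single mice. It was -0.43 without BCC mouse 3 (10 of 40 above 0) and -0.17 without BCC mouse 4, but 0.12 without BCC mouse 5 (36 of 40) and 0.05 without BCC mouse 8 (29 of 40). With the hair score as a covariate it was 0.14 (33 of 40).

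The members with the smallest p in this comparison were Aurkb, Mybl2 and Gins2. Aurkb, the kinase of the chromosomal passenger complex, averaged 17.7 ± 12.6 CPM in BCC (SD, n = 4) and 24.4 ± 10.4 CPM in healthy skin (SD, n = 5), with a log2 fold change of -0.46 (SE 0.41, adjusted p = 0.658). Gins2, of the GINS complex of the replication fork, averaged 18.8 ± 11.0 and 14.0 ± 3.14 CPM in BCC and healthy skin (0.43, SE 0.40, adjusted p = 0.676). That difference changed sign, to -0.041, without BCC mouse 4. Mybl2 is described with the hair score below. Among 7 CDK inhibitors 1 rose, Cdkn2a, which encodes p16 and Arf, with 24.0 ± 10.6 CPM in BCC and 0.409 ± 0.190 CPM in healthy skin (log2 fold change 5.84, SE 0.62, adjusted p = 0.000136). None of 30 other DNA replication genes and none of 40 other mitosis genes passed here (median log2 fold changes -0.03 and 0.02).

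Laser-treated skin against BCC skin gave no call either. Of the 40 members 0 passed, where 7.75% of all genes were called, and counts were 0 at an unadjusted p under 0.05 (20.6% of all genes), in DESeq2 and in limma voom. No member had groups without overlap, where 11.5% of all genes did in the higher and 7.34% in the lower direction. The median log2 fold change was 0.28 (-0.04 over all genes), with 29 members above 0. Without AFL mouse 11 it was -0.08, with 15 of 40 above 0, so its sign rests on that mouse. It was 0.08 without BCC mouse 5 and 0.11 without BCC mouse 8. With the hair score as a covariate the median was higher, 0.40 (38 of 40 above 0). With days since induction as a covariate it was 0.57 (30 of 40), though AFL and BCC mice do not overlap in those days. Mki67 had 80.6, 63.6 and 206 CPM in AFL mice 2, 7 and 11, against 92.1, 189.8, 98.2 and 57.9 CPM in BCC. AFL mouse 11 was the only one of the 3 above all 4 BCC mice. The log2 fold change was 0.09 (SE 0.62, adjusted p = 0.961) and became -0.64 without mouse 11, -0.14 without BCC mouse 8 and -0.049 with library size alone as the scaling.

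Top2a encodes the topoisomerase that untangles chromosomes. It had 133, 77.2 and 208 CPM in AFL mice 2, 7 and 11, against 100.6, 148, 79.4 and 61.0 CPM in BCC mice 3, 4, 5 and 8 (log2 fold change 0.52, SE 0.39, adjusted p = 0.5002). Tpx2, a spindle assembly factor, had the smallest p of the members, with 56.4, 32.4 and 74.8 CPM after AFL, against 48.5, 37.7, 20.7 and 20.7 CPM in BCC (0.77, SE 0.39, adjusted p = 0.276). Again mouse 11 was highest and mouse 7 lay inside the range of BCC. Ccnb1 stood at 0.69 (SE 0.46, adjusted p = 0.427), Pcna, the sliding clamp of DNA polymerase, at 0.33 (SE 0.40, adjusted p = 0.718) and E2f1 at 0.35 (SE 0.29, adjusted p = 0.557). Mcm5, of the replication helicase, stood at -0.11 (SE 0.45, adjusted p = 0.935), with a sign that changed in 4 alternatives, such as leaving out BCC mouse 3 (0.36). Rrm1, of ribonucleotide reductase, stood at 0.52 (SE 0.31, adjusted p = 0.367) and Birc5, survivin, at 0.65 (SE 0.41, adjusted p = 0.409). Among G1 cyclins and kinases 1 of 7 fell, the cyclin D1 gene Ccnd1, with 115 ± 22.6 CPM after AFL (SD, n = 3) and 261 ± 71.1 CPM in BCC (-1.18, SE 0.32, adjusted p = 0.0347). That call ended on leaving out any one of AFL mice 2, 7 and 11 and BCC mice 3 and 4, in limma voom, with the hair score or days since induction as a covariate, and with mouse 16 as 2 mice. These were 9 of 30 alternatives, over which the log2 fold change ran from -1.35 to -0.999.

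Vismodegib-treated skin was set against the same 4 BCC mice. Of the 40 members 1 rose, Kif23, or 2.50%, where 8.03% of all genes rose, 9.00% fell and 17.0% were called in either direction. At an unadjusted p under 0.05 the count was 14, or 35.0% of members, against 32.7% of all genes. DESeq2 called 2 members (Kif23 and Mcm4), where it called 3704 of 18521 genes, and limma voom 0 (2299 of 15673 genes). All 15 S phase members and all 22 mitosis members had log2 fold changes above 0 (32 of all 40 with library size alone), with medians of 0.49 and 0.81, while the 3 regulators had a median of -0.05. All genes had a median of 0.05.

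**Figure D2:**
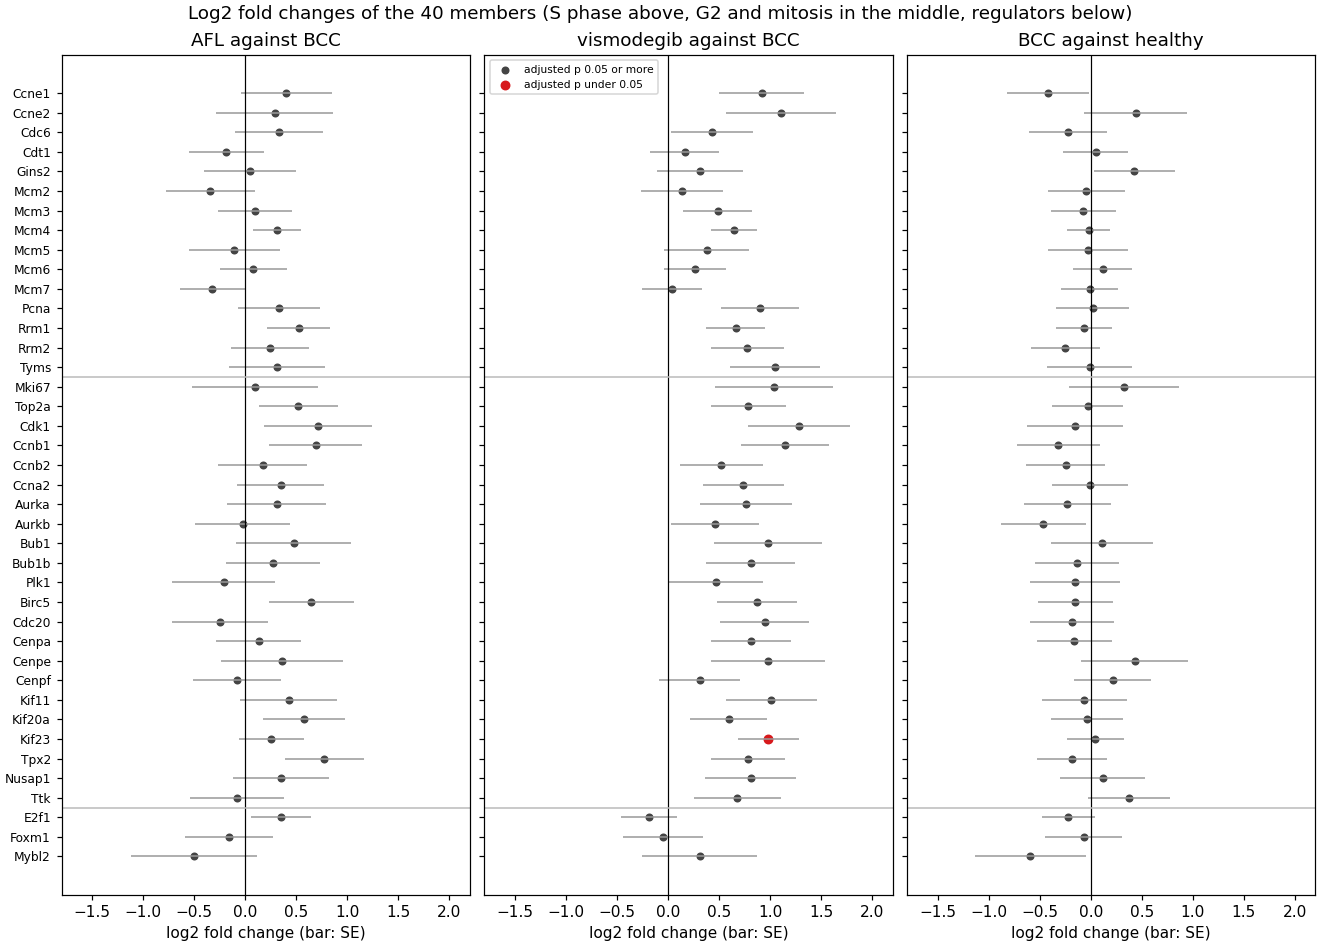
Each point is the log2 fold change of a member, with its SE as a bar, in 3 comparisons (left to right, AFL against BCC, vismodegib against BCC, BCC against healthy). Points sit to the right of 0 for 38 of 40 members in vismodegib against BCC, and the single red point is Kif23.

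Kif23 had 38.2, 27.3, 51.8 and 40.7 CPM in vismodegib mice 1, 6, 9 and 12, against 16.7, 26.95, 18.4 and 17.8 CPM in BCC mice 3, 4, 5 and 8. The lowest vismodegib mouse and the highest BCC mouse lay next to each other, and the groups did not overlap. Its log2 fold change was 0.98 (SE 0.30, adjusted p = 0.0345), with a level higher in 4 of 4 mice than in any BCC mouse. Groups did not overlap for 5 members in this direction, where 7.63% of all genes did so, and for 0 in the other, where 8.74% did. The call of Kif23 ended on leaving out any one of vismodegib mice 1, 9 and 12, BCC mice 3, 5 and 8 and healthy mouse 10 (adjusted p = 0.0525 to 0.117), with library size alone (0.58, adjusted p = 0.189) and by limma voom (adjusted p = 0.143).

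Mki67 had 126, 75.7, 526 and 173 CPM in the vismodegib mice, against 92.1, 189.8, 98.2 and 57.9 CPM in BCC. Only mouse 9 stood above all BCC mice, and the difference did not pass (1.04, SE 0.58, adjusted p = 0.225). Ccnb1 had 62.5, 80.2, 112 and 67.6 CPM in the vismodegib mice, against 64.8, 37.3, 24.9 and 18.7 CPM in BCC (1.14, SE 0.43, adjusted p = 0.0778). Here BCC mouse 3 was the one that reached the vismodegib level. Top2a had 144, 148, 211 and 167 CPM in the vismodegib mice, against 100.6, 148, 79.4 and 61.0 CPM in BCC (0.78, SE 0.37, adjusted p = 0.148).

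Among S phase members, Pcna had 133, 156, 485 and 151 CPM in the vismodegib mice, against 126, 187, 89.6 and 93.0 CPM in BCC (0.90, SE 0.38, adjusted p = 0.11). Again 1 mouse, mouse 9, stood apart from the rest of its group. Mcm5 had 79.4, 105.2, 64.6 and 87.7 CPM in the vismodegib mice, against 118, 72.4, 23.2 and 45.3 CPM in BCC (0.38, SE 0.42, adjusted p = 0.566). For this gene mouse 9 was the lowest of the vismodegib mice. E2f1 had 13.7, 16.6, 9.98 and 15.5 CPM in the vismodegib mice, against 22.5, 17.2, 8.80 and 15.2 CPM in BCC (-0.19, SE 0.27, adjusted p = 0.677), and its sign changed (0.026) without BCC mouse 3. Pcna, Tyms and Ccnb1 have processed pseudogenes in the mouse genome, and how reads were shared between copies is not given in the sources used here.

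**Figure D3:**
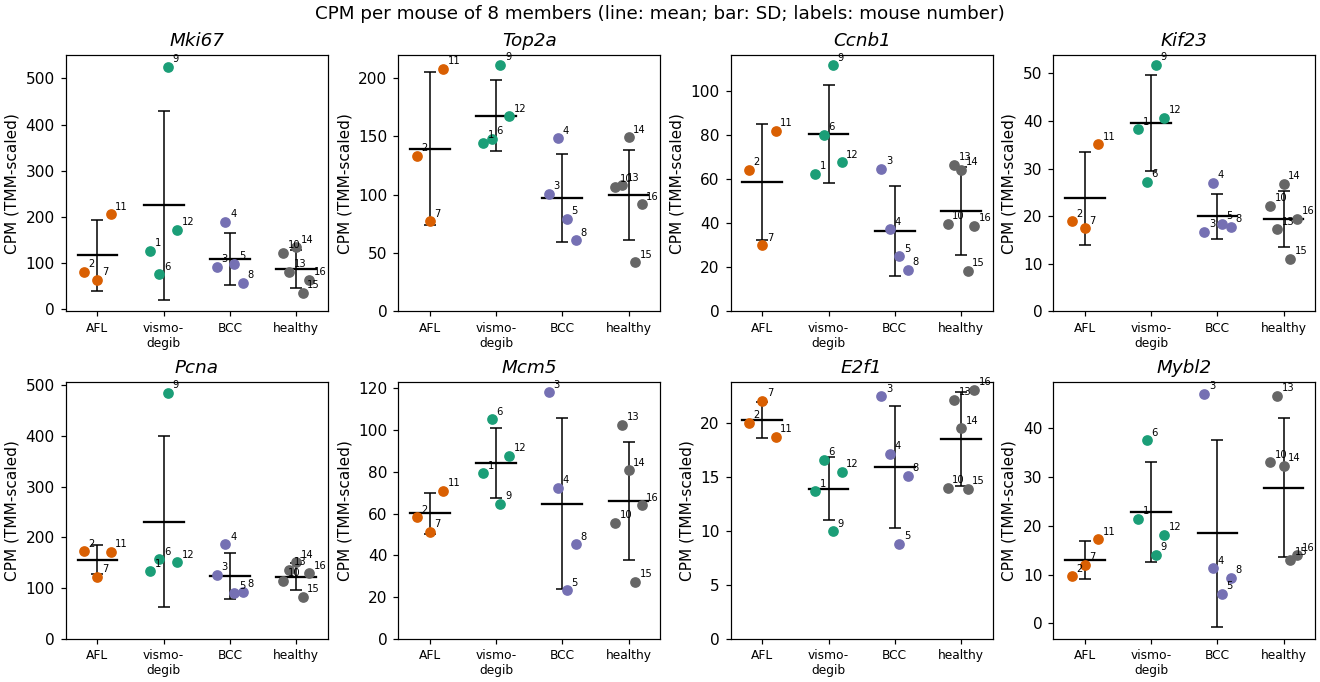
Points are CPM of single mice, labelled by mouse number, for 8 members in the 4 groups, with the group mean as a line and the SD as a bar. Mouse 9 stands far above the other vismodegib mice for Mki67 and Pcna (526 and 485 CPM), and is the lowest of them for Mcm5, E2f1 and Mybl2.

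Other libraries and scalings moved the size of this shift. Without mouse 9 the median of the members was 0.49 in place of 0.75, with 38 of 40 still above 0 and 0 called. Without BCC mouse 3 it was 0.91, with 6 called (Cdc20, Ccne1, Ccnb1, Aurka, Bub1b and Cenpa), where 3120 of 15741 genes were called. With library size alone, all genes shifted to a median of -0.30 and the members to 0.30, and 32 of 40 stayed above 0.

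Markers of other cells differed in the same comparison. Neutrophil markers rose in 7 of 7 genes, with a summed level of 2422 to 49365 CPM in the vismodegib mice, against 25.2 to 135 CPM in BCC mice, where Ly6g was at 0 in all 4. Mouse 9 held that highest sum. Macrophage markers rose in 5 of 10 genes (651 to 2428 CPM, against 340 to 665 CPM), and basal keratinocyte markers in 1 of 7, Krt14 (sums of 23270 to 44344 CPM, against 8954 to 18087 CPM). After AFL, macrophage markers rose in 10 of 10 genes, with sums of 3361 to 4243 CPM, against 340 to 665 CPM in BCC mice, and neutrophil markers in 4 of 7 (96.2 to 2385 CPM, against 25.2 to 135 CPM). Forming muscle markers rose in 3 of 8 genes after vismodegib (sums of 2.13 to 31.7 CPM, against 1.32 to 5.15 CPM in BCC mice), and fibroblast markers fell in 2 of 6, Col1a1 and Col1a2. After AFL, forming muscle markers rose in 7 of 8 genes (105.3 to 688 CPM), endothelium markers in 5 of 6 (223 to 487 CPM, against 94.9 to 158 CPM in BCC mice) and erythroid markers in 3 of 3 tested. T cell, adult muscle and melanocyte markers had 0 calls in both comparisons. The part of these cells in the result was not tested.

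Of the other DNA replication genes, 2 of 30 rose in vismodegib against BCC. Orc1, of the origin recognition complex, averaged 10.8 ± 1.18 CPM in vismodegib-treated skin and 3.66 ± 1.48 CPM in BCC (SD, n = 4 each; log2 fold change 1.56, SE 0.39, adjusted p = 0.0136), with a call lost without BCC mouse 8 and in limma voom. Gmnn, the licensing inhibitor geminin, stood at 1.504 (SE 0.46, adjusted p = 0.0364). Its values ran from 0.74 to 1.76 over 30 alternatives, and 12 ended the call, among them leaving out AFL mouse 2, vismodegib mouse 9, BCC mice 4, 5 and 8 or healthy mice 10 and 14, each alone. Of 40 other mitosis genes none passed (median log2 fold change 0.69). Cdkn2a fell, with 3.19 ± 1.30 CPM in vismodegib-treated skin and 24.0 ± 10.6 CPM in BCC (-2.92, SE 0.59, adjusted p = 0.004), under all 30 alternatives. Ccnd1 fell as well (-0.94, SE 0.29, adjusted p = 0.0384), a call that 8 of 30 alternatives ended, among them leaving out vismodegib mice 1, 9 or 12 or BCC mice 3 or 4. Among 17 pocket proteins, E2F factors and MuvB subunits, E2f4 rose (0.78, SE 0.23, adjusted p = 0.0314) and its partner gene Tfdp2 fell (-0.67, SE 0.19, adjusted p = 0.0232), calls that 12 and 6 of 30 alternatives ended, both without vismodegib mice 1 or 12 and BCC mice 4 or 5. E2f4 also lost its call without AFL mouse 11, BCC mouse 8, healthy mouse 10 or healthy mouse 14, and Tfdp2 without vismodegib mouse 9. Of 6 Hedgehog targets 5 fell, such as Hhip, an inhibitor of Hedgehog ligands, with 3.88 ± 1.09 CPM in vismodegib-treated skin and 102 ± 58.4 CPM in BCC (-4.71, SE 0.57, adjusted p = 0.000207). In AFL against BCC 2 of 6 fell, Hhip (-2.55, adjusted p = 0.0112) and Gli2 (-1.45, adjusted p = 0.0136), calls that 3 and 4 of 30 alternatives ended. Both rose in BCC against healthy skin (3.52 and 1.27, adjusted p = 0.000775 and 0.0209), and 7 of 29 alternatives ended the call of Gli2. Hhip was higher after AFL than after vismodegib (2.16, adjusted p = 0.0205), a call that 5 of 30 ended.

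Vismodegib-treated skin against healthy skin also gave 1 call of 40, Kif23, where 7.57% of all genes rose and 11.6% were called. At an unadjusted p under 0.05 the count was 14 (31.6% of all genes). DESeq2 called 4 members (Kif23, Ccne2, Mcm4 and Cenpe), where it called 3164 of 18521 genes, and limma voom 0 (1609 of 15673 genes). Kif23 had 38.2, 27.3, 51.8 and 40.7 CPM in the vismodegib mice, against 22.2, 17.2, 26.8, 11.1 and 19.5 CPM in healthy mice 10, 13, 14, 15 and 16. These levels did not overlap, as in 4 members in this direction and 0 in the other (9.33% and 6.78% of all genes), and the log2 fold change was 1.03 (SE 0.28, adjusted p = 0.0279). The call ended on leaving out any one of vismodegib mice 9 and 12 and healthy mice 13, 15 and 16 (adjusted p = 0.0503 to 0.0872). It also ended in limma voom (adjusted p = 0.0952), with library size alone, with 1 library per mouse and with the hair score as a covariate. The median of the members was 0.61, against 0.02 over all genes. It was 0.30 with library size alone (31 of 40 above 0) and 0.97 with the hair score as a covariate (39 of 40). Of the other mitosis genes 4 of 40 rose, of which Anln, the cytokinesis scaffold anillin, had the smallest p, with 73.5 ± 30.8 CPM in vismodegib-treated skin and 30.3 ± 9.52 CPM in healthy skin (1.28, SE 0.34, adjusted p = 0.0254). The calls of Anln, Dlgap5 and Kif4 ended in 7, 14 and 19 of 29 alternatives, each among them without vismodegib mouse 9. This comparison shares the vismodegib mice with the one above.

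Laser against vismodegib gave 0 calls of 40, where 9.15% of all genes were called. At an unadjusted p under 0.05 the count was 2 (25.9% of all genes), Cdc20 and Kif23, and it was 0 in DESeq2 and in limma voom. The log2 fold change was below 0 for 39 of 40 members, with a median of -0.47 (-0.06 over all genes). That median was -0.28 without vismodegib mouse 9, -0.28 without AFL mouse 7 and -0.69 without AFL mouse 11. With library size alone it was -0.18 (31 of 40 below 0), and with days since induction as a covariate -0.20 (28 of 40). Cdc20, the activator of the anaphase-promoting complex, had 23.6, 25.8 and 42.4 CPM in AFL mice 2, 7 and 11, against 76.5, 65.8, 76.4 and 62.1 CPM in vismodegib mice 1, 6, 9 and 12. The groups did not overlap, as in 5 members in this direction (9.24% of all genes), and the log2 fold change was -1.20 (SE 0.48, adjusted p = 0.129). Kif23 had 18.9, 17.4 and 35.1 CPM in the AFL mice (-0.73, SE 0.32, adjusted p = 0.166). E2f1 was the 1 member above 0, with 20.04, 22.1 and 18.8 CPM in the AFL mice, against 13.7, 16.6, 9.98 and 15.5 CPM in the vismodegib mice. Those levels did not overlap, in 1 member against 13.0% of all genes (0.54, SE 0.29, adjusted p = 0.255). Cdkn1c, which encodes the CDK inhibitor p57, rose, with 17.4 ± 5.94 CPM after AFL and 5.62 ± 2.85 CPM after vismodegib (1.63, SE 0.37, adjusted p = 0.0121), a call lost without AFL mouse 7 and with days since induction as a covariate.

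Laser against healthy skin gave 0 calls of 40 as well, where 9.24% of all genes were called, with 0 at an unadjusted p under 0.05 (25.3% of all genes), 0 in DESeq2 and 0 in limma voom. No member had groups without overlap, where 14.7% of all genes did in the higher and 11.0% in the lower direction. The median of the members was 0.24, against 0.01 over all genes. It was -0.10 without AFL mouse 11, with 18 of 40 above 0, and 0.52 with the hair score as a covariate, with 38 above 0. Hair scores of AFL mice (-0.72 to 3.67) and healthy mice (4.32 to 9.56) did not overlap. The value with the covariate thus extends the slope past the scores seen within each group. Mybl2 had the smallest p, with 9.61, 12.0 and 17.2 CPM in the AFL mice, against 32.99, 46.6, 32.2, 13.0 and 14.0 CPM in healthy mice 10, 13, 14, 15 and 16 (-1.10, SE 0.61, adjusted p = 0.27). With the hair score as a covariate its sign changed, to 0.66, a value with the same limit. Tpx2 stood at 0.59 (SE 0.37, adjusted p = 0.334) and Rrm1 at 0.45 (SE 0.29, adjusted p = 0.351).

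The hair phase of each mouse was read from 21 genes of the growing hair shaft and its sheath, none of them a member, as a score that is their mean log2 CPM. Scores were 0.39, -0.72 and 3.67 in AFL mice 2, 7 and 11, then 0.42, 8.58, 0.69 and 1.31 in vismodegib mice 1, 6, 9 and 12, and 8.53, 2.51, 1.18 and 3.09 in BCC mice 3, 4, 5 and 8. Healthy mice 10, 13, 14, 15 and 16 had 9.56, 8.84, 8.68, 6.92 and 4.32. So 1 vismodegib mouse, 1 BCC mouse and 4 of 5 healthy mice had high scores, and no AFL mouse did.

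Of the 40 members 2 rose with the score within groups, Mybl2 and Mcm7, where 6.09% of all genes did, 8.32% fell and 14.4% changed in either direction. At an unadjusted p under 0.05 the count was 18 higher and 1 lower, where 31.2% of all genes passed. DESeq2 called 10 members, where it called 3541 of 18521 genes. Limma voom, run on the 19 libraries with a score for each, called 26 (3516 of 15673 genes). With all 19 libraries as replicates, edgeR called 18 (3352 of 15673 genes). So this count depends on the tool and on whether libraries or mice are the units. The median slope was 0.08 log2 units per unit of score, and -0.02 over all genes. That of the members was 0.13 without vismodegib mouse 6 and 0.16 in limma voom.

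Mybl2 had 47.0 CPM in BCC mouse 3 and 37.5 CPM in vismodegib mouse 6, the high-score mice of their groups. The other BCC mice had 11.3, 6.09 and 9.29 CPM, and the other vismodegib mice 21.4, 14.1 and 18.2 CPM. Its slope was 0.25 (SE 0.04, adjusted p = 0.00136) and passed under every alternative run. In BCC against healthy skin Mybl2 stood at -0.59 (SE 0.54, adjusted p = 0.67), at 0.077 with the score as a covariate, and at -1.64 (adjusted p = 0.04998) without BCC mouse 3. Healthy mouse 15 went against the slope, with a score of 6.92 and 13.0 CPM of Mybl2.

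Mcm7, another subunit of the replication helicase, had 155 CPM in BCC mouse 3 and 120 CPM in vismodegib mouse 6. The other BCC mice had 86.7, 51.9 and 77.9 CPM, and the other vismodegib mice 86.2, 83.4 and 91.5 CPM. Its slope was 0.10 (SE 0.03, adjusted p = 0.0344). That call ended on leaving out any one of vismodegib mouse 6, BCC mice 3 and 5 and healthy mouse 13 (slopes of 0.07 to 0.13), and with 1 library per mouse. It also ended after a correction for transcript GC content and length (0.08, adjusted p = 0.0525). With that correction 3 members passed, Mybl2, Ccnb1 and Rrm1, where 3377 of 15760 genes did. Bub1b, of the spindle checkpoint, and Foxm1 had slopes of 0.15 and 0.13 that missed the threshold (adjusted p = 0.0531 and 0.0599). Foxm1 had 69.3 CPM in BCC mouse 3, and 31.8, 14.4 and 28.8 CPM in the other BCC mice. Mki67 had a slope of -0.02 (SE 0.09, adjusted p = 0.928).

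Among factors of the same pathway, E2f2 had a slope of 0.24 (SE 0.04, adjusted p = 0.00136), kept under all 28 alternatives. Cdk4, the partner kinase of cyclin D, had a slope of 0.12 (SE 0.03, adjusted p = 0.0266), which did not pass without BCC mouse 3, BCC mouse 5 or vismodegib mouse 6. None of 30 other DNA replication genes and 1 of 40 other mitosis genes, the kinase gene Nek2, rose with the score. The call of Nek2 (slope 0.16, SE 0.04, adjusted p = 0.0228) ended without BCC mouse 3 and with 1 library per mouse. Melanocyte markers rose with it in 6 of 6 genes, and adult muscle markers fell in 5 of 6.

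**Figure D4:**
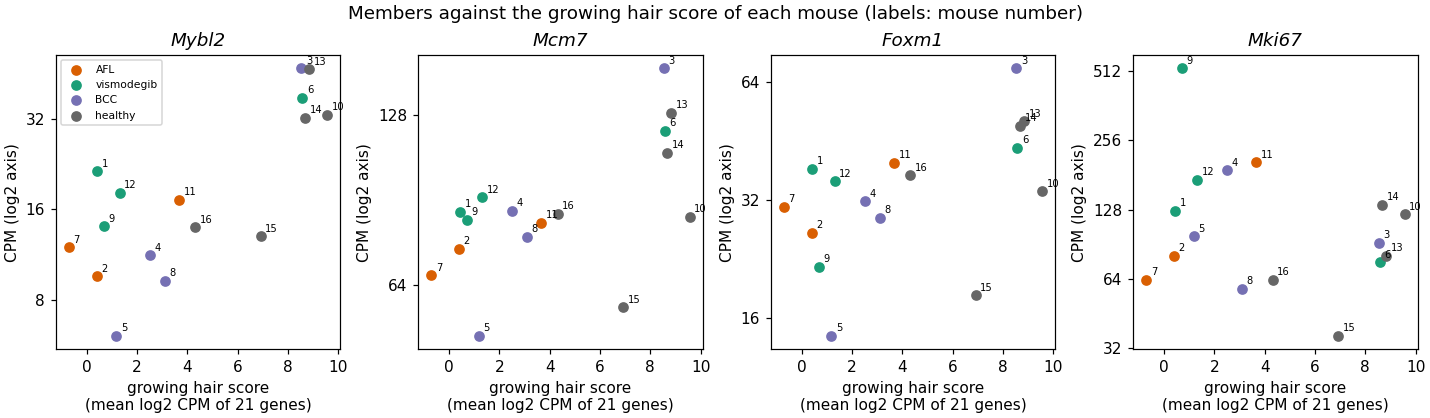
CPM on a log2 axis against the growing hair score, 1 point per mouse, coloured by group and labelled by mouse number, for Mybl2, Mcm7, Foxm1 and Mki67. For Mybl2, 5 of the 6 mice with a score of 6.92 or more lie at 32.2 CPM or above, and healthy mouse 15 lies at 13.0 CPM, while for Mki67 the highest point, mouse 9, has a score of 0.69.

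Both libraries of a mouse gave a further view of spread. All 40 members were higher in the first library of healthy mouse 16 than in the second, with a median absolute log2 difference of 1.87. Their hair scores were 5.19 and 0.15, and Mki67 had 99.6 and 25.3 CPM. In vismodegib mouse 12, 39 of 40 members were higher in the first library (0.55), with scores of 1.88 and -0.37. In AFL mouse 11, 27 of 40 were higher in the first (0.08), with scores of 3.46 and 3.88. Between paired libraries, chi-square per gene was 143 in mouse 16, 96.6 in mouse 12 and 44.1 in mouse 11. Counting mouse 16 as 2 mice gave 10 members with a slope past the test in place of 2, where 3093 of 15776 genes passed in place of 2271 of 15760.

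S phase and mitosis genes were then set against each other as the mean log2 deviation of the S phase members minus that of the mitosis members. The difference was 0.05, 0.24 and -0.37 in AFL mice 2, 7 and 11, and -0.10, 0.10, -0.54 and -0.14 in vismodegib mice 1, 6, 9 and 12. It was 0.16, 0.02, -0.21 and 0.38 in BCC mice 3, 4, 5 and 8, and -0.04, 0.13, -0.17, 0.29 and 0.19 in healthy mice 10, 13, 14, 15 and 16. Every pair of groups overlapped. Means were -0.02 ± 0.31 (SD, n = 3) after AFL and -0.17 ± 0.27 (SD, n = 4) after vismodegib, against 0.09 ± 0.25 (SD, n = 4) in BCC and 0.08 ± 0.18 (SD, n = 5) in healthy skin. BCC mouse 5 stood at -0.998 for S phase and -0.78 for mitosis, and healthy mouse 15 at -0.98 and -1.27.

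Mouse 9 had 0.59 for S phase, 1.13 for mitosis and -0.56 for the regulators. Its Mki67 was 4.21 times the mean of the 3 other vismodegib mice, that of Ccne2 4.07 times, and those of Tyms, the thymidylate synthase gene, and Pcna 3.40 and 3.30 times. In the same mouse Mybl2, Foxm1 and E2f1 were at 0.548, 0.552 and 0.654 times that mean, and Mcm5 at 0.712 times.

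Member deviations were then set beside the GC content of the transcript. The correlation of member deviation with GC content over the 40 genes was -0.74 in mouse 9, 0.81 in BCC mouse 3 and -0.76 in BCC mouse 5. It was -0.72 in AFL mouse 11 and 0.74 in healthy mouse 13, and between -0.53 and 0.66 in the 11 other mice. Genes of 1 library share its depth and base composition, so these values only describe the library. Over all genes, each 10 points of GC went with a slope of -0.70 log2 units in mouse 9, 0.62 in BCC mouse 3 and -0.55 in BCC mouse 5. Each doubling of transcript length went with -0.48 log2 units in mouse 9. In the other mice that slope ran from -0.07 in healthy mouse 13 to 0.23 in BCC mouse 5. The 18 members highest in mouse 9 had a mean GC content of 44.8%, and the 12 highest in BCC mouse 3 one of 53.8%.

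**Figure D5:**
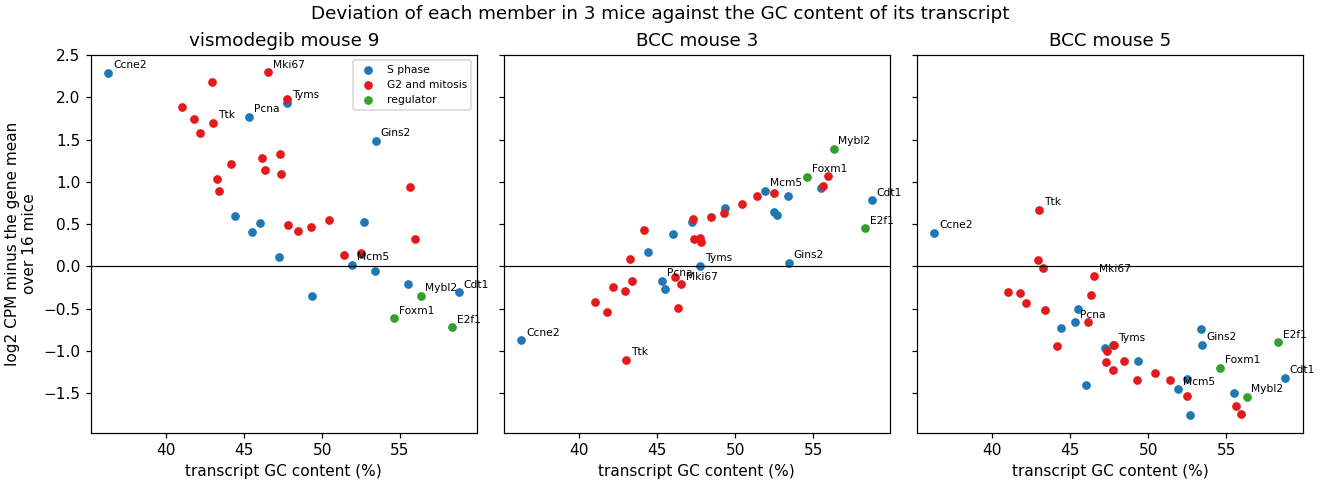
Each point is a member in 1 mouse, as log2 CPM minus the mean of the gene over 16 mice, against the GC content of its longest coding transcript in percent, coloured by class. Points fall with GC content in vismodegib mouse 9 and BCC mouse 5 (r = -0.74 and -0.76 over 40 genes) and climb with it in BCC mouse 3 (r = 0.81).

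A correction of each mouse for smooth trends of all genes on GC content and length, chosen after the data were seen, brought these correlations to -0.43 in vismodegib mouse 9, 0.33 in BCC mouse 3, -0.23 in BCC mouse 5, -0.26 in AFL mouse 11 and 0.30 in healthy mouse 13. Within mouse 9 the deviation of Pcna then stood at 0.67 in place of 1.77 and that of Ccne2 at 0.97 in place of 2.29, while that of Mki67 stood at 2.71 in place of 2.30 and that of Tyms at 1.96 in place of 1.93. The low values of the regulators in mouse 9 shrank or changed sign. Foxm1 stood at -0.011 in place of -0.62, Mybl2 at 0.18 in place of -0.35 and E2f1 at -0.30 in place of -0.72. Mcm5 stood at 0.37 in place of 0.02. The S phase minus mitosis difference of mouse 9 was -0.39 after the correction, that of BCC mouse 3 -0.02 and that of healthy mouse 13 0.01. Group means of this difference were then 0.03 ± 0.25 (SD, n = 3) after AFL and -0.14 ± 0.20 (SD, n = 4) after vismodegib. They were 0.09 ± 0.17 (SD, n = 4) in BCC and 0.02 ± 0.15 (SD, n = 5) in healthy skin, and every pair of groups still overlapped. The median of the members in vismodegib against BCC was 0.49, with 39 of 40 above 0. The part of base composition and transcript length in the group differences was not tested further.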

How the data were processed

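RNA of mouse skin gave 19 libraries from 16 animals, by a directional, oligo dT based preparation per the labels' protocols. The authors deposited expected counts per gene, not normalized, made with Bowtie2 and RSEM against GRCm39 per the submitters' processing notes. The versions, the annotation and the strand setting of the counting: not given in the sources used here. Of the values, 3.42% were not whole numbers.

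Expected counts were rounded, and libraries of mice 11, 12 and 16 were summed, so that n is the number of mice. Nothing in the labels ties mice to litters or batches. edgeR 4.0.16 (R 4.3.3) kept 15760 of 18521 genes (filterByExpr by group) and scaled them by TMM. Its quasi-likelihood F test with robust dispersions, 1 fit of all mice and the group as the sole term gave p-values, with Benjamini-Hochberg adjustment across all 15760. "Rose" and "fell" mean an adjusted p under 0.05. The hair slope came from a fit of group and score, with a prior count of 2 in log2 CPM. No group has more than 5 mice, so spread is imprecise. CPM are not per length, and levels of different genes are not compared.

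The members and lists were chosen with earlier results of these data known. Genes named are Mki67, Top2a, Ccnb1, Pcna, Mcm5 and E2f1, members called, the 3 members with the smallest p where none was called, and at most 3 called genes of each other list. Mouse 9 was described after its values were seen. Alternatives were DESeq2 1.42.0, limma 3.58.1 voom with the mouse as a random effect, other scalings and filters (1 CPM in 3 mice), all 19 libraries as replicates, 1 library per mouse, a replicate block, the hair score or days since induction as a covariate, and leaving out each mouse. The correction for GC content and length used the longest coding transcript of GENCODE vM21 (GRCm38), for 15389 of the genes tested, and was added after the data were seen. The fit was tested on simulated data.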

Additional observations from a re-analysis of the deposited data

Results flagged for a closer look

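In 132 groups of 4 or 5 mice (40 members and 4 scores in the vismodegib, BCC and healthy groups), 1 mouse stood apart by Dixon's test in 4, or 3.03%, where chance gives about 1 in 20. The AFL group, with 3 mice, was not tested. Vismodegib mouse 9 stood high for Pcna (gap of 0.875 of the range of the group), for Nusap1, which encodes a spindle protein (0.837), and for the mean of the mitosis members (0.840). Vismodegib mouse 6 stood high for the growing hair score (0.891). Mouse 9 also held the highest neutrophil marker sum (49365 CPM). Its all-gene slopes were -0.70 per 10 points of GC and -0.48 per doubling of transcript length. The part of these in its values was not tested.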

How the results depend on the processing

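Counts of members past the threshold were 0 under every alternative run in AFL against BCC and AFL against healthy. In vismodegib against BCC (1) they were 2 in DESeq2, 0 in limma voom, 0 with library size alone, 9 with the hair score and 2 with days since induction as a covariate, and 0 to 6 on leaving out a mouse. Among all genes, 3704 of 18521 were called in DESeq2, 3372 of 15760 with the hair score and 1535 of 15535 with days since induction. In vismodegib against healthy (1) they were 4 in DESeq2, 0 in limma voom, 0 with library size alone, 2 with all 19 libraries, 0 with 1 library per mouse, 3 with the hair score and 2 with mouse 16 as 2 mice, and 0 to 5 on leaving out a mouse. Among all genes, 3164 of 18521 were called in DESeq2 and 1939 of 15760 with the hair score. Without vismodegib mouse 6, where 5 members passed, 3490 of 15752 genes did. In BCC against healthy and AFL against vismodegib (0 each) leaving out a mouse gave 0 to 1, the 1 being Mybl2 and Cdc20 without BCC mouse 3, and the correction for GC content and length gave 1, E2f1, in AFL against vismodegib. For the hair slope (2) they were 10 in DESeq2, 26 in limma voom, 5 with the filter of 1 CPM, 18 with all 19 libraries, 1 with 1 library per mouse, 10 with mouse 16 as 2 mice and 1 to 5 on leaving out a mouse. Among all genes, 3541 of 18521 were called in DESeq2, 3516 of 15673 in limma voom and 3352 of 15673 with all 19 libraries. With the filter of 1 CPM 2099 of 14749 were called, with 1 library per mouse 1724 of 15753, and with mouse 16 as 2 mice 3093 of 15776. The correction for GC content and length gave 3 members for the hair slope, where 3377 of 15760 genes were called.

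Replicate numbers did not pair mice (7 of 21 same-number pairs correlated over 0.1, from -0.38 to 0.62). The replicate block gave 1 member for the hair slope, 1 also with the GC and length correction, and changed no other count. With the block, alone or with the correction, the slopes of Mcm7 (0.10 and 0.07), Cdk4 and Nek2 lost their calls, and the member median in AFL against BCC was 0.07 and -0.0011 (19 of 40 above 0). Mki67 in AFL against BCC was -0.35 under the block and -0.46 with the correction added, and Pcna there -0.0022 with both. Signs also changed in AFL against BCC for Mki67 (-0.049 with library size alone, -0.0012 with the correction, -0.64 to 0.49 on leaving out a mouse, below 0 without AFL mouse 11 or BCC mouse 8) and Mcm5 (0.12 in limma voom, 0.34 with the hair score, 0.010 with the correction, -0.43 to 0.36 on leaving out a mouse, above 0 without BCC mouse 3). On leaving out a mouse, E2f1 in vismodegib against BCC ran from -0.41 to 0.026 (without BCC mouse 3) and Gins2 in BCC against healthy from -0.041 (without BCC mouse 4) to 0.68. With the hair score, Mybl2 was 0.077 in BCC against healthy and 0.66 in AFL against healthy, where the scores of the groups did not overlap. The cause of these changes was not tested. With 3 to 5 mice a group, the SEs printed with each value limit what could be detected. The GC and length correction, alone or with the block, and the split of mouse 16 were chosen after seeing the data.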
